A study of Homo sapiens with 9 samples.

Results

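The genes described here form the ATF4 and CHOP transcription factor axis: the basic leucine zipper (bZIP) factors ATF4, DDIT3 (the gene of CHOP), ATF3, ATF5, CEBPB and CEBPG, and the downstream genes TRIB3, NUPR1, VLDLR and STC2. They were chosen by name, as the rows of the deposited expression table whose symbol equals one of these 10, and all 10 were found among 23621 gene rows. Their RNA was measured by polyA RNA-seq in MOLT4 cells, an established human T-cell acute lymphoblastic leukaemia line, after 6 h of culture with a compound or its vehicle. The series title names GSPT1, a factor that ends translation at stop codons, as an off-target of phthalimide-based degraders.

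There were 3 groups of 3 libraries, all of MOLT4 cells in RPMI with 10% fetal bovine serum. One group is titled MI-389, which the series calls a phthalimide conjugate, one is titled sunitinib, a multi-kinase inhibitor, and the last received 0.1% DMSO, the vehicle. The labels of the treated libraries conflict. In their source field the compounds are crossed: sunitinib at 1 µM is given for libraries titled MI-389, and MI-389 at 0.1 µM for libraries titled sunitinib. The column names and the barcode list follow the titles, so groups are named by title throughout. Should that field be the correct one, what is said below of either compound holds for its counterpart. The doses in that field differ 10-fold, so a difference between the treated groups joins compound and dose. The labels do not say whether libraries of a group came from separate cultures, and p-values then measure only the spread between these libraries, which may be technical.

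When eIF2α is phosphorylated by one of the kinases that sense amino acid shortage, endoplasmic reticulum stress, haem shortage or double-stranded RNA, general translation slows while ATF4 mRNA is translated more. ATF4 binds DNA as a dimer, often with a C/EBP protein, and switches on genes of amino acid supply together with DDIT3, ATF3 and TRIB3. CHOP raises genes of protein synthesis and cell death, and PPP1R15A then brings a phosphatase back to eIF2α. RNA levels, given here, do not show protein levels or eIF2α phosphorylation.

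Values are FPKM (fragments scaled by transcript length and by library size) after a further normalization by the authors, in which undetected rows lie near 0.1. Tests used limma on log2(FPKM + 1) over 12301 genes averaging 1 FPKM or more, with all 9 libraries in 1 model. A gene was called where its p, adjusted over those genes by the Benjamini-Hochberg method, was below 0.05. Differences below are differences of mean log2(FPKM + 1) and are too small for low genes because of the added 1. Folds are ratios of mean FPKM. Of the 10 axis genes, 9 passed the filter and would pass it without the MI-389-titled libraries too. NUPR1 did not.

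Within groups, libraries correlated across 12045 genes (genes are not independent replicates) at Pearson's r of 0.9946 to 0.9975. All 12 T-lineage markers listed had a mean of at least 1 FPKM, and they summed to 3432 to 3657 FPKM in MI-389-titled, 3841 to 4076 in sunitinib-titled and 3590 to 4534 FPKM in DMSO libraries. None of 4 myeloid markers reached that mean. Of 4 B-cell markers CD79A and CD79B did, and of 5 epithelial and fibroblast markers KRT8 did. CD3D and CD3E (1629 and 768 FPKM in MI-389-titled libraries) supplied most of the T-lineage sum, which does not show how single markers moved. TAL1 averaged 10.4 FPKM in MI-389-titled and 29.9 FPKM in DMSO libraries, and RAG1 69.0 and 57.3 FPKM. Both were named after their values were seen. Over the tested genes, the median log2 difference between sunitinib-titled and DMSO libraries was -0.10, and the small differences of that comparison are given beside it.

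All 9 tested axis genes rose in the MI-389-titled libraries, by 1.65-fold (ATF5) to 25.9-fold (ATF3), with a median of 4.80-fold. Over all tested genes 56.7% were called in the same comparison, 28.5% higher and 28.3% lower, so a call alone was common here. The median log2 difference of the 9 genes was 2.16, against -0.002 over all genes. None of the 9 had overlapping groups, where 30.5% of all tested genes lay wholly above DMSO and 29.7% wholly below. Adjusted p in limma ran between 1.46e-09 and 0.000147 (n = 3 each). In bulk RNA, more RNA per cell and more cells with that RNA cannot be told apart.

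**Figure D1:**
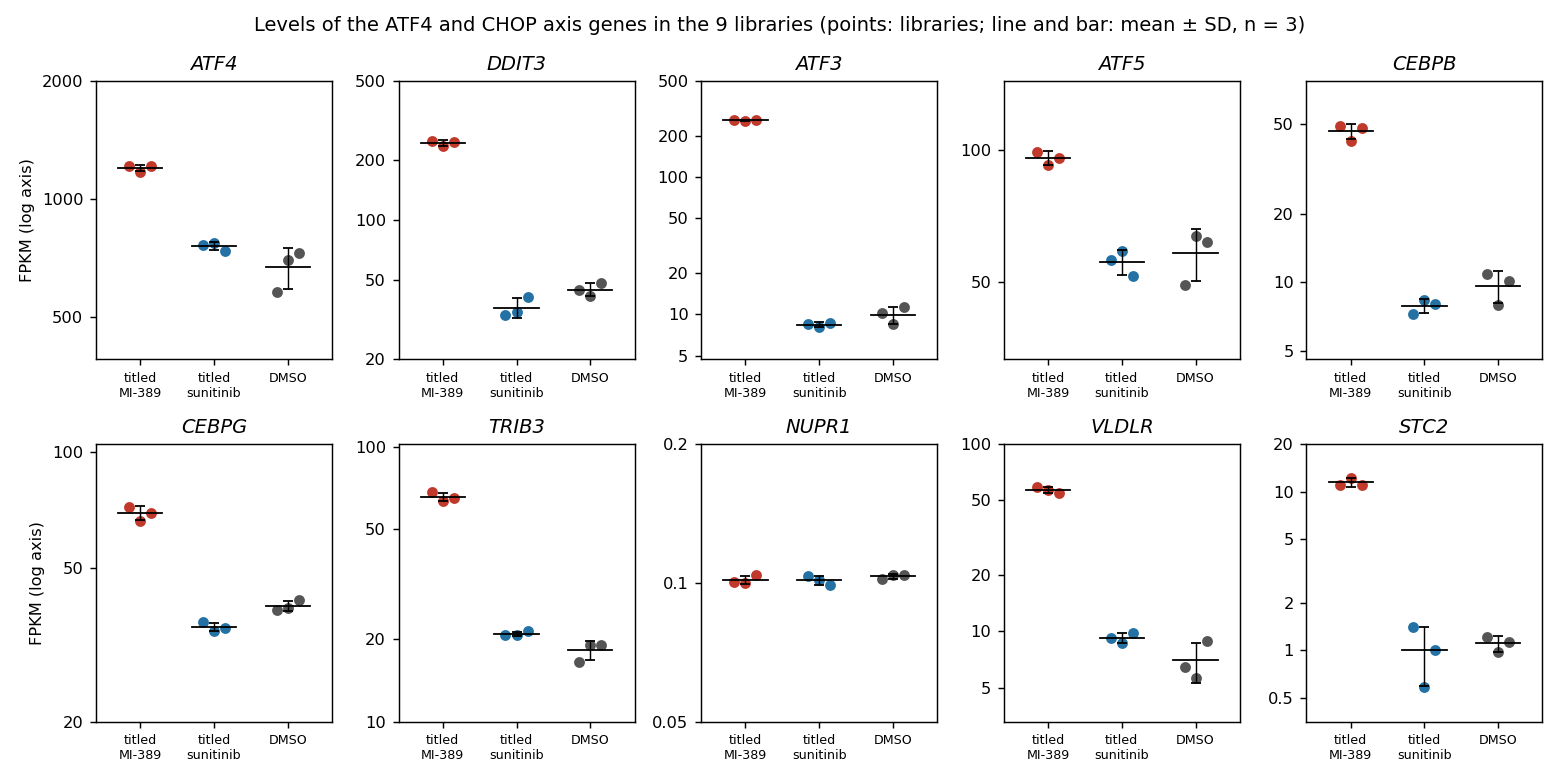
FPKM of each axis gene (logarithmic axis) in the 9 libraries, grouped as MI-389 titled, sunitinib titled and DMSO; points are libraries. The 9 detected genes stand highest in the MI-389-titled libraries, and NUPR1 lies near 0.1 FPKM in all 9.

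ATF4, the central factor of the axis, was already the most abundant member without a compound. It stood at 1215, 1176 and 1215 FPKM in MI-389-titled libraries, at 763, 774 and 740.2 FPKM in sunitinib-titled libraries and at 581, 700.2 and 731 FPKM in DMSO libraries. The MI-389-titled libraries lay above every other library, and DMSO replicate 1 was the lowest of the 9. The mean of 1202 ± 22.3 FPKM in MI-389-titled libraries was 1.79-fold the mean of 671 ± 79.3 FPKM in DMSO libraries (SD, n = 3 each; log2 difference 0.85, SE 0.08, limma adjusted p = 2.3e-05). The annotation names 4 ATF4 pseudogenes with no row in the table, so reads shared with them cannot be placed.

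DDIT3 encodes CHOP, which dimerizes with C/EBP proteins. Its level was 251, 235 and 246 FPKM in MI-389-titled libraries, 33.2, 34.6 and 40.9 FPKM in sunitinib-titled libraries and 44.6, 41.3 and 48.1 FPKM in DMSO libraries. All MI-389-titled libraries lay above DMSO, and all sunitinib-titled libraries lay just below it. Against DMSO the rise in MI-389-titled libraries was 5.46-fold (log2 difference 2.42, SE 0.08, limma adjusted p = 5.06e-08). In the gene annotation DDIT3 overlaps MARS, the methionyl-tRNA synthetase gene on the opposite strand, and the library kit does not mark strand. MARS averaged 326 ± 11.2 FPKM in MI-389-titled, 170 ± 2.21 in sunitinib-titled and 139 ± 12.9 FPKM in DMSO libraries (SD, n = 3 each), a smaller rise than that of DDIT3, and reads in the overlap cannot be told apart.

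ATF3, a stress-induced factor that can repress as well as activate, had the largest rise of the axis. It measured 261, 255 and 259 FPKM in MI-389-titled libraries, 8.48, 8.03 and 8.72 FPKM in sunitinib-titled libraries and 10.2, 8.44 and 11.2 FPKM in DMSO libraries. The sunitinib-titled and DMSO libraries overlapped, and the MI-389-titled ones stood far above both. ATF3 rose 25.9-fold against DMSO (log2 difference 4.57, SE 0.09, limma adjusted p = 1.46e-09), the 13th largest difference among 12301 genes.

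ATF5, a relative of ATF4 whose mRNA is likewise translated more when eIF2α is phosphorylated, showed the smallest fold. Levels were 99.4, 92.7 and 96.4 FPKM in MI-389-titled libraries, 55.9, 59.0 and 51.5 FPKM in sunitinib-titled libraries and 49.2, 63.7 and 61.6 FPKM in DMSO libraries. Sunitinib-titled and DMSO libraries overlapped. The rise over DMSO in MI-389-titled libraries was 1.65-fold (log2 difference 0.72, SE 0.09, limma adjusted p = 0.000147). NUP62, a nuclear pore gene that overlaps ATF5, averaged 109 FPKM in MI-389-titled, 110 FPKM in sunitinib-titled and 153 FPKM in DMSO libraries, the opposite direction to ATF5.

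CEBPB and CEBPG are C/EBP partners that dimerize with ATF4 and with CHOP. CEBPB had 49.0, 42.1 and 47.7 FPKM in MI-389-titled libraries, 7.22, 8.36 and 8.04 FPKM in sunitinib-titled libraries and 10.9, 7.9 and 10.1 FPKM in DMSO libraries. CEBPG, which lacks a strong activation domain, had 72.2, 66.4 and 69.5 FPKM in MI-389-titled libraries, 36.2, 34.4 and 35.0 FPKM in sunitinib-titled libraries and 39.0, 39.4 and 41.2 FPKM in DMSO libraries. The MI-389-titled libraries stood apart for both, and the sunitinib-titled libraries lay wholly below DMSO for CEBPG only. CEBPB rose 4.80-fold (log2 difference 2.16, SE 0.11, limma adjusted p = 5.54e-07) and CEBPG 1.74-fold (log2 difference 0.78, SE 0.05, limma adjusted p = 2.25e-06) in MI-389-titled libraries against DMSO. The ratio of CEBPG to CEBPB was thus 1.46 to 1.58 in MI-389-titled libraries, 4.11 to 5.01 in sunitinib-titled libraries and 3.58 to 4.98 in DMSO libraries. CEBPB overlaps CEBPB-AS1, an antisense gene on the opposite strand, and reads in the overlap cannot be told apart.

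Sequence just upstream of the transcription start was read for the members that have a promoter window in RefSeq (GRCh38.p14): 9 of the 10 had one, in 18 windows, each 300 bases long with 250 before and 50 after the start. They were searched on both strands for TGATGNAA, the composite element bound by an ATF4 and C/EBP dimer. It was found in 2 of 18 windows, those of CEBPG and ATF3, against 3.62% of 35116 windows of all genes. The cyclic AMP response element TGACGTCA was found in 0 of 18 member windows and 1.85% of all windows. DDIT3 is known for an endoplasmic reticulum stress element. The consensus of that element was in 0 of 18 member windows. With any base allowed at its last position, a change made after the sequences were seen, it was in both overlapping DDIT3 windows and in 0.316% of all windows. A match describes letters only, and no match says only that these letters are not in this window.

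The 3 windows are shown because they hold a match, one in a gene with a small rise (CEBPG) and the others in genes with large rises. The match is TGATGNAA in CEBPG and ATF3. In DDIT3 it is the endoplasmic reticulum stress element only with its last base open, not its consensus. Capitals mark the match. It begins 42 bases before the start of CEBPG (chr19:33373863-33374162, plus strand), 191 bases before the upstream start of ATF3 (chr1:212565157-212565456, plus strand) and 100 bases before the start of DDIT3 (chr12:57520465-57520764, minus strand).
CEBPG: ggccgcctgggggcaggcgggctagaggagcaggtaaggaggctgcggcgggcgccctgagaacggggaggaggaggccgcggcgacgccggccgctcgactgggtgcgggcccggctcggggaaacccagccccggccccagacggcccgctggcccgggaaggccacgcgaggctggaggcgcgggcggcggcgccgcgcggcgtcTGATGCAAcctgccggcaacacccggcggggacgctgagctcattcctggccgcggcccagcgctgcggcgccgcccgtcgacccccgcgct
ATF3: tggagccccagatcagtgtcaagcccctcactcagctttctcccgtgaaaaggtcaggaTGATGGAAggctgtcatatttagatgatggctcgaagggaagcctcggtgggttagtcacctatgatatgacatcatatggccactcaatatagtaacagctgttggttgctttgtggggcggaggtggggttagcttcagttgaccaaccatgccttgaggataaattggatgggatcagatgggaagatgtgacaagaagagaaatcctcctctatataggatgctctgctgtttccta
DDIT3: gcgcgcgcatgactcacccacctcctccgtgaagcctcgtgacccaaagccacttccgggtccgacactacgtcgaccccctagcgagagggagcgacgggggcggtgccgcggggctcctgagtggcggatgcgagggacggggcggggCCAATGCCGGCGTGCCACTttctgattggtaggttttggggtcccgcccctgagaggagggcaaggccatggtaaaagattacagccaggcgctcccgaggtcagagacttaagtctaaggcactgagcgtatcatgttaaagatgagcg

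Because the factors rose by different folds, the makeup of the group shifted. The summed FPKM of the 6 bZIP members was 1867 to 1947 in MI-389-titled libraries, 884 to 918 in sunitinib-titled libraries and 735 to 904 in DMSO libraries. ATF4 made up 62.4 to 63.0% of that sum in MI-389-titled libraries, 83.7 to 84.4% in sunitinib-titled libraries and 79.1 to 81.3% in DMSO libraries. ATF3 supplied 13.4 to 13.6% in MI-389-titled libraries, 0.874 to 0.985% in sunitinib-titled libraries and 0.98 to 1.39% in DMSO libraries. The levels of DDIT3 and ATF3 were nearly equal in MI-389-titled libraries alone: their ratio was 0.923 to 0.96 there, 3.92 to 4.69 in sunitinib-titled libraries and 4.29 to 4.9 in DMSO libraries.

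The ratio of ATF4 to DDIT3, which a scaling factor of a whole library cannot change, separated all 3 groups. It was 4.93 ± 0.0799 in MI-389-titled, 21.1 ± 2.64 in sunitinib-titled and 15.1 ± 1.96 in DMSO libraries (SD, n = 3 each), with no overlap. An exact two-sided permutation test gave p = 0.1 for each pair of groups, the smallest p that 3 against 3 libraries allow, so this ratio cannot pass 0.05 by that test.

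**Figure D2:**
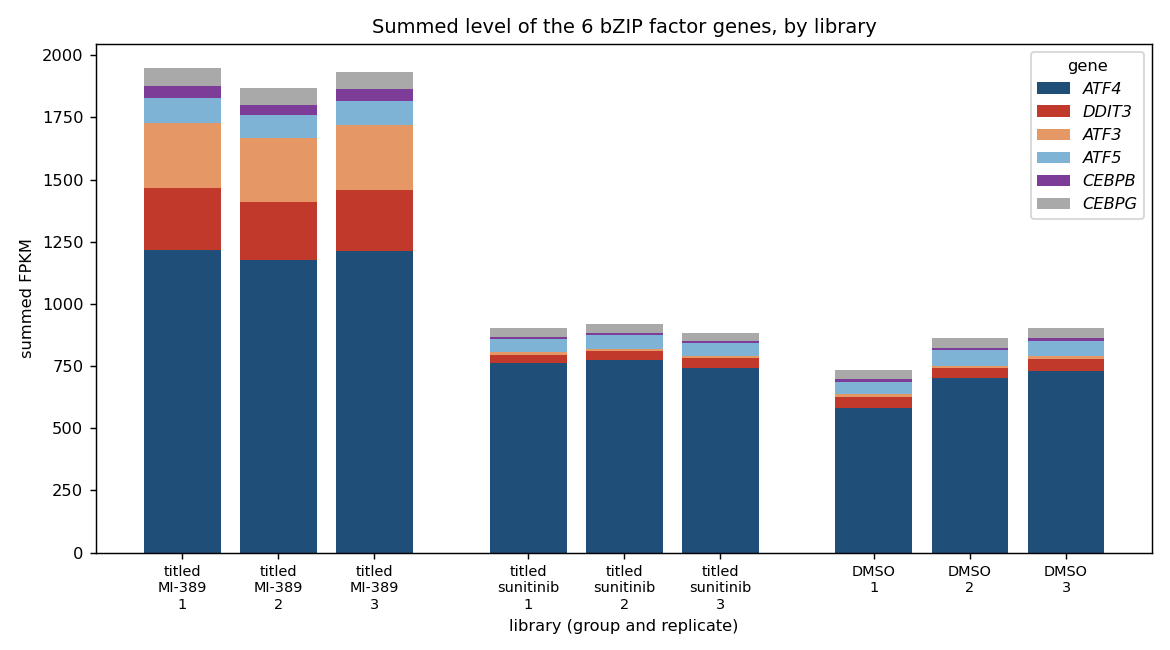
Summed FPKM of the 6 bZIP members in each of the 9 libraries, stacked by gene, from MI-389 titled through sunitinib titled to DMSO. The sums were 1867 to 1947 in MI-389-titled, 884 to 918 in sunitinib-titled and 735 to 904 in DMSO libraries, and the ATF3 and DDIT3 layers widen in the MI-389-titled ones.

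Of the downstream genes, TRIB3 encodes a pseudokinase that binds ATF4 and CHOP and restrains them. It had 68.1, 63.6 and 64.9 FPKM in MI-389-titled libraries, 20.7, 20.7 and 21.3 FPKM in sunitinib-titled libraries and 16.5, 19.0 and 19.0 FPKM in DMSO libraries. All 3 groups were separate. TRIB3 rose 3.60-fold in MI-389-titled libraries against DMSO (log2 difference 1.80, SE 0.06, limma adjusted p = 5.06e-08).

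VLDLR, a lipoprotein receptor that ATF4 is known to induce, had 59.1, 57.0 and 54.7 FPKM in MI-389-titled libraries, 9.25, 8.71 and 9.78 FPKM in sunitinib-titled libraries and 6.50, 5.63 and 8.88 FPKM in DMSO libraries. DMSO replicate 3 reached into the range of the sunitinib-titled libraries. VLDLR rose 8.13-fold in MI-389-titled libraries (log2 difference 2.87, SE 0.12, limma adjusted p = 2.1e-07). It overlaps VLDLR-AS1, an antisense gene on the opposite strand, and reads in the overlap cannot be told apart.

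STC2, a secreted glycoprotein and known ATF4 target, was the lowest of the detected genes. It had 11.1, 12.2 and 11.0 FPKM in MI-389-titled libraries, 1.398, 0.590 and 1.01 FPKM in sunitinib-titled libraries and 1.22, 0.972 and 1.13 FPKM in DMSO libraries. Its log2 difference in MI-389-titled libraries was 2.56 (SE 0.14, limma adjusted p = 9.8e-07) and its ratio of means 10.35. NUPR1, a small stress-induced chromatin protein, lay between 0.0989 and 0.104 FPKM in all 9 libraries, the level of undetected rows, so no response was detectable for it.

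**Figure D3:**
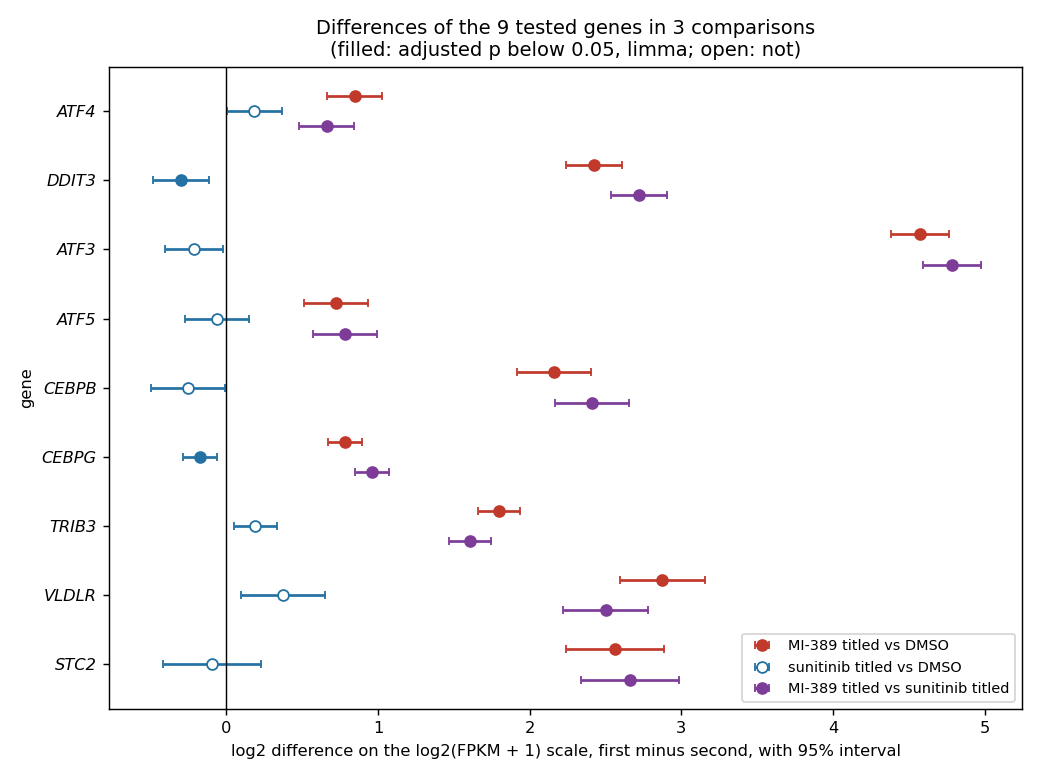
Log2(FPKM + 1) differences of the 9 tested axis genes with 95% confidence intervals, for MI-389 titled minus DMSO, sunitinib titled minus DMSO and MI-389 titled minus sunitinib titled. Against DMSO the differences span 0.72 to 4.57 for MI-389-titled and -0.30 to 0.38 for sunitinib-titled libraries.

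In the sunitinib-titled libraries 0 axis genes were called higher, 2 were called lower and 7 were not called, against 19.3% of all tested genes called, 2.37% higher and 16.9% lower. Groups did not overlap for 4 genes: ATF4 and TRIB3 lay wholly above DMSO, as did 5.89% of all tested genes, and DDIT3 and CEBPG wholly below, as did 29.3%. Both comparisons with DMSO share the same 3 DMSO libraries. DDIT3 was lower by 0.30 (95% interval of the difference -0.48 to -0.11, limma adjusted p = 0.0347) and CEBPG by 0.17 (interval -0.29 to -0.06, limma adjusted p = 0.0393), beside a median difference of -0.10 over all genes and -0.10 over the 9 genes. ATF4 differed by 0.19 (interval 0.00 to 0.37, limma adjusted p = 0.141), TRIB3 by 0.19 (interval 0.05 to 0.33, limma adjusted p = 0.0574) and VLDLR by 0.38 (interval 0.10 to 0.65, limma adjusted p = 0.0609), none of them called, although at an unadjusted p under 0.05 these 3 genes were higher, and ATF3 and CEBPB lower beside DDIT3 and CEBPG. ATF3 differed by -0.21 (interval -0.40 to -0.02) and CEBPB by -0.25 (interval -0.50 to -0.01), and neither was called (limma adjusted p = 0.108 and 0.133). ATF5 (-0.06, interval -0.27 to 0.15) and STC2 (-0.10, interval -0.42 to 0.23) were not called either, and their sign turned under other settings, with ATF5 at 0.026 after median centring and STC2 at 0.060 without sunitinib-titled replicate 2. The highest interval bound of this comparison was 0.65 (VLDLR), and the smallest MI-389-titled difference was 0.72 (ATF5). The interval of that ATF5 difference was 0.51 to 0.93, so it overlaps the VLDLR interval.

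These small calls turned on 1 setting or 1 library. When each library was centred on its median, the limma adjusted p was 0.0705 for DDIT3 and 0.0652 for CEBPG, and ATF4 (0.0109), TRIB3 (0.00299) and VLDLR (0.0113) were called higher instead. DDIT3 was not called without DMSO replicate 3 (limma adjusted p = 0.101), sunitinib-titled replicate 1 (0.11) or 2 (0.122), or MI-389-titled replicate 1 (0.0539) or 3 (0.0597). CEBPG was not called without DMSO replicate 2 (0.079) or 3 (0.0826), any sunitinib-titled replicate (0.0664, 0.142 and 0.122 for replicates 1 to 3), or MI-389-titled replicate 1 (0.0532) or 3 (0.0714).

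Set directly against the sunitinib-titled libraries, which enter both of their comparisons, the MI-389-titled libraries were higher for all 9 genes, beside 56.3% of all tested genes called, 36% higher and 20.3% lower. Folds ran between 1.58 (ATF4, limma adjusted p = 1e-04) and 30.7 (ATF3, limma adjusted p = 9.45e-10). The median difference was 2.41 for the 9 genes and 0.08 over all genes. The 2 groups did not overlap for any of the 9, where 42.5% of all tested genes lay wholly above and 27% wholly below.

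Among the axis genes, responses fell into a narrow and a wide set by size. ATF4, ATF5 and CEBPG changed by 0.72 to 0.85 on the log2 scale in MI-389-titled libraries against DMSO, and the other 6 by 1.80 to 4.57. The nearest pair over the 9 libraries was ATF5 and CEBPG, whose differences from their DMSO means had a root mean square distance of 0.12. DDIT3 lay nearest to CEBPB (0.19), and ATF3 lay 1.04 or more from every other member. Similar patterns were also sought among tested genes outside the axis that averaged 5 FPKM or more, without short non-coding RNA rows. Among these, the pattern most like that of ATF4 was that of SMOX, which encodes spermine oxidase (0.06), followed by SERINC1 (0.06), BTN2A1 (0.07), CORO1A (0.07) and ZBTB48 (0.07). For DDIT3 it was JUND, an AP-1 factor (0.15), followed by ULBP1, a ligand of an activating receptor of natural killer cells (0.23), and then MXD1, TIMP3 and HIST1H2AC (0.25 each). MXD1, TIMP3 and HIST1H2AC passed the filter of 5 FPKM only through the MI-389-titled libraries. They averaged 3.57, 2.34 and 4.19 FPKM in sunitinib-titled and 3.28, 2.32 and 4.29 FPKM in DMSO libraries. HIST1H2AC has near-identical copies, so its level is uncertain.

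Beyond the members, the pathway was described by 5 lists of genes chosen by function, with earlier results of these data known. Of the 5, the largest median shift was in known ATF4 targets of amino acid supply (transporters, synthesis enzymes and aminoacyl-tRNA synthetases, with XPOT, a tRNA exporter, EIF4EBP1, a translation repressor, and VEGFA). Of 35 tested, 32 rose, 1 fell and 2 were not called in MI-389-titled libraries against DMSO, with a median difference of 1.06 beside -0.002 over all genes, of which 28.5% were called higher and 28.3% lower. PCK2, the mitochondrial phosphoenolpyruvate carboxykinase, averaged 119 ± 5.53 FPKM in MI-389-titled, 13.7 ± 0.134 in sunitinib-titled and 7.62 ± 1.09 FPKM in DMSO libraries (SD, n = 3 each). SLC7A11, the cystine transporter, averaged 41.4 ± 0.62 FPKM in MI-389-titled, 3.89 ± 0.288 in sunitinib-titled and 2.50 ± 0.299 FPKM in DMSO libraries (SD, n = 3 each). Both rose in MI-389-titled libraries, 15.6-fold for PCK2 (limma adjusted p = 3.54e-09) and 16.6-fold for SLC7A11 (limma adjusted p = 3.44e-09). VEGFA, a vessel growth factor, rose 5.98-fold and the cysteinyl-tRNA synthetase gene CARS 4.76-fold (limma adjusted p = 5.06e-08 and 4.01e-08). The glycine transporter gene SLC6A9, 1 of the 32, averaged 16.8 ± 2.04 FPKM in MI-389-titled, 1.35 ± 0.19 in sunitinib-titled and 0.621 ± 0.139 FPKM in DMSO libraries (SD, n = 3 each). It passed the filter only through the MI-389-titled libraries (0.986 FPKM without them), so its rise there is given as values. ALDH18A1, an enzyme of proline synthesis, was the one that fell; it was named after its values were seen.

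In sunitinib-titled libraries 12 of these 35 rose, 3 fell and 20 were not called, at a median of 0.08 beside -0.10 over all genes, of which 2.37% were called higher and 16.9% lower. PCK2 rose 1.79-fold (limma adjusted p = 0.00139), SLC6A9 2.17-fold (0.0149), SLC7A11 1.56-fold (0.00499) and CARS 1.42-fold (0.00311), while VEGFA was not called (1.21-fold, 0.0636). Single libraries moved these counts: 12 rose and 10 fell without DMSO replicate 1 (median 0.01), and 7 rose and 0 fell without sunitinib-titled replicate 2 or without sunitinib-titled replicate 3. Without sunitinib-titled replicate 1, 8 rose and 2 fell. The higher count was 18 after median centring, 23 under quantile normalization and 25 under cyclic loess, with 3 lower in each, and under each of these settings 3 axis genes were called higher and 0 lower.

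Promoter windows of the target lists were searched the same way. TGATGNAA was found in 14 of 36 target genes with a window, CHAC1 and CARS among them, against 4.46% of 27305 genes with a window. The lists hold genes already known as ATF4 or CHOP targets, so this count describes the lists and tests nothing. In the CHAC1 and CARS stretches below TGATGNAA lies on the reverse strand, so it reads TTGCATCA. The PPP1R15A stretch is shown for its TGACGTCA. That element was found in 1 of 36 target genes, a share near the 2.25% of all 27305 genes. Capitals mark the element in CHAC1 (chr15:40953242-40953289, plus strand), CARS (CARS1 in RefSeq, chr11:3057398-3057445, minus strand) and PPP1R15A (chr19:48872343-48872390, plus strand).
CHAC1: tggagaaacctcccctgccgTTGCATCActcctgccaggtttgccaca
CARS: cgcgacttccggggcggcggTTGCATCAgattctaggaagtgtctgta
PPP1R15A: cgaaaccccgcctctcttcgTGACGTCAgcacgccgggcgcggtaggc

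Known CHOP and ATF4 targets in stress feedback and cell death formed a list of 12. In MI-389-titled libraries against DMSO 7 of them rose, 3 fell and 2 were not called (median difference 0.45), beside 28.5% of all tested genes higher and 28.3% lower. Of the 7, BBC3 passed the filter only through the MI-389-titled libraries (0.924 FPKM without them) and was named after its values were seen. BCL2, also among the 7, rose 1.26-fold (limma adjusted p = 0.00972), and the 2 not called were TNFRSF10B and DDIT4. These too were named after their values were seen. The list does not mark which targets are raised and which are lowered, so its counts do not measure induction. CHAC1, which breaks down glutathione, averaged 150 ± 7.3 FPKM in MI-389-titled, 4.01 ± 0.179 in sunitinib-titled and 1.81 ± 0.879 FPKM in DMSO libraries (SD, n = 3 each). It rose 82.8-fold in MI-389-titled (limma adjusted p = 1.86e-08) and 2.22-fold in sunitinib-titled libraries (limma adjusted p = 0.00914). SESN2, a stress protein that restrains mTORC1, rose 13.6-fold in MI-389-titled libraries (limma adjusted p = 7.17e-09), and PMAIP1, the BH3-only protein NOXA, 3.03-fold (limma adjusted p = 5.49e-08). HERPUD1, a component of endoplasmic reticulum protein degradation, rose 2.07-fold in MI-389-titled libraries (limma adjusted p = 7.63e-07) and was 1.46-fold lower in sunitinib-titled libraries than in DMSO (limma adjusted p = 0.00098). The genes that fell in MI-389-titled libraries were BCL2L11, the BH3-only protein BIM, ERO1L, an oxidase of the endoplasmic reticulum, and GADD45A, a growth arrest gene, all named after their values were seen. In sunitinib-titled libraries 2 of the 12 rose and 5 fell (median -0.17, beside 2.37% and 16.9% of all tested genes), 7 calls that became 4 without DMSO replicate 2 or without sunitinib-titled replicate 3.

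On the upstream side, of 7 genes for eIF2α, its kinases and its phosphatase subunits, 2 rose, 1 fell and 4 were not called in MI-389-titled libraries (median 0.04), shares near the 28.5% higher and below the 28.3% lower of all tested genes. Those that rose encode the targeting subunits that bring the phosphatase to eIF2α. PPP1R15A averaged 36.1 ± 1.47 FPKM in MI-389-titled, 12.4 ± 1.66 in sunitinib-titled and 13.2 ± 2.01 FPKM in DMSO libraries (SD, n = 3 each; 2.73-fold over DMSO, limma adjusted p = 8.41e-06). PPP1R15B rose 1.75-fold (limma adjusted p = 4e-06). EIF2AK1, the kinase that senses haem shortage, was 1.23-fold lower in MI-389-titled libraries (limma adjusted p = 0.00162). In sunitinib-titled libraries 0 of the 7 rose, also 0 at an unadjusted p under 0.05 in limma. The median of the list was -0.15, beside -0.10 over all tested genes, of which 2.37% were called higher and 16.9% lower. EIF2AK2, EIF2AK3 and EIF2S1, named after their values were seen, were called lower. These 3 calls became 1 without DMSO replicate 2, sunitinib-titled replicate 2 or sunitinib-titled replicate 3.

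Of 47 other bZIP factors 34 were tested, and 19 rose, 8 fell and 7 were not called in MI-389-titled libraries (median 0.31), beside 28.5% of all tested genes higher and 28.3% lower. Of the 19, FOS (0.398 FPKM without the MI-389-titled libraries) and JDP2 (0.807) passed the filter only through those libraries. JUN, an AP-1 factor that can pair with ATF3, averaged 794 ± 23.1 FPKM in MI-389-titled, 3.36 ± 0.534 in sunitinib-titled and 6.59 ± 0.864 FPKM in DMSO libraries (SD, n = 3 each). It rose 120.5-fold in MI-389-titled libraries (limma adjusted p = 2.53e-10) and was 1.96-fold lower in sunitinib-titled libraries than in DMSO (limma adjusted p = 0.00208). FOS averaged 23.4 FPKM in MI-389-titled, 0.313 in sunitinib-titled and 0.483 FPKM in DMSO libraries, and JUND rose 5.64-fold in MI-389-titled libraries (limma adjusted p = 2.11e-07). TEF, a circadian bZIP factor, fell to 3.84 ± 0.164 FPKM in MI-389-titled libraries, against 7.64 ± 0.77 FPKM in DMSO libraries (SD, n = 3 each; limma adjusted p = 2.63e-05). In sunitinib-titled libraries 1 of the 34 rose and 9 fell (median -0.16), beside 2.37% higher and 16.9% lower over all tested genes and their median of -0.10. These 10 calls became 5 without sunitinib-titled replicate 3 and 6 without DMSO replicate 2, sunitinib-titled replicate 1 or 2, or MI-389-titled replicate 3.

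Among the closest relatives of the members, CEBPA, CEBPD, CEBPE, TRIB1, NUPR1L and STC1 were below the filter, and of 4 tested relatives 2 rose and 2 fell in MI-389-titled libraries, beside 28.5% of all tested genes higher and 28.3% lower. JDP2, the nearest relative of ATF3 and 1 of those called higher, averaged 7.18 ± 0.379 FPKM in MI-389-titled, 0.992 ± 0.25 in sunitinib-titled and 0.622 ± 0.0938 FPKM in DMSO libraries (SD, n = 3 each), and it passed the filter only through the MI-389-titled ones. TRIB2, the relative of TRIB3, fell to 16.4 ± 1.05 FPKM in MI-389-titled libraries, against 25.02 ± 2.21 FPKM in DMSO libraries (SD, n = 3 each; limma adjusted p = 0.000195). LRP8, a lipoprotein receptor related to VLDLR, was lower in both treated groups, which share the DMSO libraries. It was 1.496-fold lower in MI-389-titled (limma adjusted p = 0.000122) and 1.38-fold lower in sunitinib-titled libraries (limma adjusted p = 0.00442) than in DMSO.

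**Figure D4:**
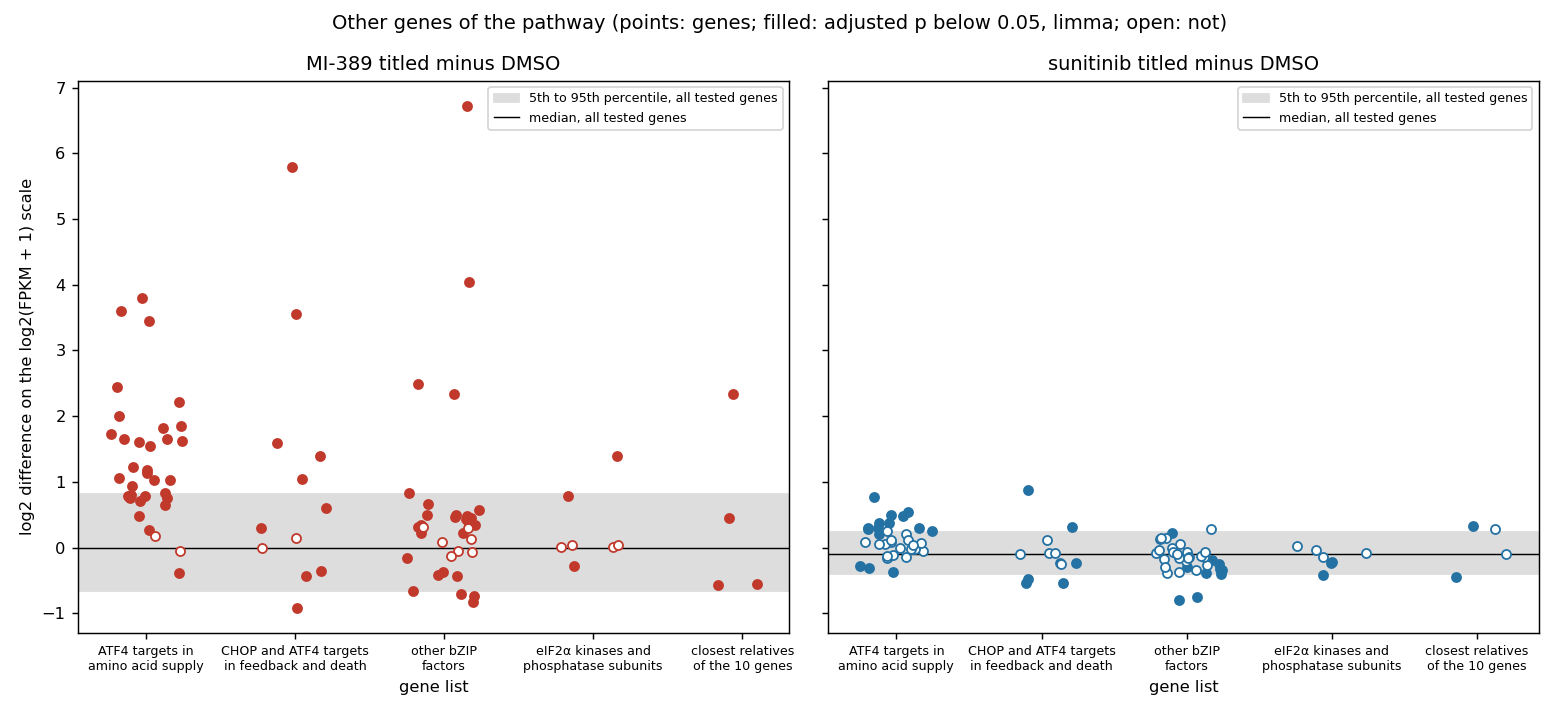
Log2(FPKM + 1) differences from DMSO of the tested genes of the 5 pathway lists, for MI-389-titled and sunitinib-titled libraries; each point is a gene. In MI-389-titled libraries the list medians run from -0.06 (closest relatives) to 1.06 (amino acid supply), and in sunitinib-titled libraries all lie between -0.17 and 0.10.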

How the data were processed

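PolyA RNA of 9 MOLT4 libraries was measured with ERCC spike-in RNA added by cell number and a low-input SMARTer kit, per the labels' protocols. The submitters' processing notes name HISAT, Cufflinks 2.0.0 and hg19. The deposited values are FPKM that the authors normalized further. Annotation, counting settings and that normalization are not stated in these sources, and the depth of each library is unknown from FPKM. Samples were grouped by title.

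From these values, log2(FPKM + 1) was fitted with limma 3.58.1 in R 4.3.3, with a variance trend, and 3 contrasts were taken. Genes under a mean of 1 FPKM and 92 spike-in rows were left out. Ratios of members were compared with the exact permutation test of scipy 1.17.1. The fit was tried on simulated independent normal values with few changed genes. That setting is unlike these data, so it does not show how often calls here are wrong. The members and lists were chosen with earlier results of these data known. All members were named, and from each list up to 5 called genes with the largest absolute difference in MI-389-titled libraries against DMSO that averaged 5 FPKM or more in whichever group was higher. The values of 1 gene that this rule names are not reported here. For ATF4 and DDIT3 the 5 most similar other genes were named, among those averaging 5 FPKM or more and without short non-coding RNA rows. Alternatives changed the scaling, pseudocount, filter, model and libraries used.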

Additional observations from a re-analysis of the deposited data

How the results depend on the processing

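All calls of the axis genes for MI-389-titled libraries against DMSO and against sunitinib-titled libraries were kept in each of 22 alternatives that tested the gene. Their count was 8 only where a filter of 5 FPKM removed STC2.

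Against DMSO, the count of axis genes called in sunitinib-titled libraries was 2. Both were lower. It was 1 with no filter, 4 with a filter of 5 FPKM (2 higher, 2 lower), 0 with only the 6 libraries compared, 1 without the variance trend, 4 with robust moderation (1 higher, 3 lower), and 0 to 3 when 1 library was left out. After median centring, quantile normalization or cyclic loess 3 were higher and 0 lower, and after rescaling to spike-in RNA 1 was higher and 1 lower. ATF5 changed sign in that comparison: 0.026 after median centring, 0.049 under quantile normalization and 0.058 under cyclic loess. With 1 library left out, ATF5 ran between -0.18 and 0.0085 (without DMSO replicate 2) and STC2 between -0.24 and 0.060 (without sunitinib-titled replicate 2). The number of all genes called there was 2370. It was 3677 under quantile normalization, 3814 under cyclic loess, 1423 with no filter and 1225 with only the 6 libraries, and between 929 (without sunitinib-titled replicate 2) and 4244 (without DMSO replicate 1) when 1 library was left out. The cause was not tested.

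Scaling also moved the split of calls over all genes. In sunitinib-titled libraries 12.3% of calls against DMSO were higher, and 40.5% after median centring, 46.1% under quantile normalization and 48.6% under cyclic loess. In MI-389-titled libraries the share was 50.2% against DMSO and 39.4% after median centring. Against sunitinib-titled libraries it was 63.9%, and 40.3%, 46.1% and 50.2% under those 3 settings. Rescaling to spike-in RNA gave 12%, 50.2% and 64.4%, close to the shares without it. Whether the authors' normalization already used the spike-ins is not stated, so this setting may not be an independent one.

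Replicate numbers are shared between groups, but same-numbered libraries did not deviate together (correlations of deviations between -0.083 and 0.174). With the replicate block 1 axis gene was called in sunitinib-titled libraries against DMSO. Of the list counts, other bZIP factors were 6 with no filter and 5 with only the 6 libraries, where amino acid supply had 9 and the eIF2α list 1. An alternative without short non-coding RNA rows was chosen after seeing the data and also gave 2 axis genes called there, DDIT3 lower and VLDLR higher.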
